A study of Bos indicus with 6 samples.

Results

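The genes described here are the ligands, receptors and modulators of WNT signalling, read in the isthmus, the narrow part of the oviduct that opens into the uterus. They were taken by gene symbol, as all WNT, FZD, SFRP, DKK and RSPO genes with LGR4 to LGR6, LRP5, LRP6, FRZB, WIF1, AXIN1, AXIN2, RNF43, ZNRF3, LEF1 and the TCF7 genes. This gave 55 of the 24616 genes in the deposited values: 19 WNT ligands, 10 Frizzled receptors, 2 LRP co-receptors, 10 secreted inhibitors, 9 genes of the R-spondin axis, 2 AXIN genes and 3 TCF/LEF factors.

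The study compared healthy multiparous, non-lactating Nelore cows (Bos indicus) managed to ovulate a larger follicle and form a larger corpus luteum (LF/LCL) or a smaller follicle and corpus luteum (SF/SCL), to ask how the hormonal milieu around ovulation acts on the oviduct. Cows of both groups received a prostaglandin F2α analog and a GnRH agonist for presynchronization, then an intravaginal progesterone device with estradiol benzoate, prostaglandin at and after device removal, and a GnRH agonist to induce ovulation. LF/LCL cows had a further prostaglandin injection when the device was inserted, and their device was removed 42 h before GnRH, against 30 h in SF/SCL cows. Full-thickness isthmus from the side of the corpus luteum was collected on day 4, and 3 cows per group, the top-ranked of LF/LCL and the bottom-ranked of SF/SCL, gave 1 RNA-seq library each. The values of both groups therefore come from selected animals, and the age of the cows is not given in the sources used here.

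WNT proteins are secreted, lipid-modified ligands that bind Frizzled receptors. With LRP5 or LRP6 as co-receptor they stabilize beta-catenin, which activates transcription through TCF/LEF factors, and without them they act on cell polarity and movement. SFRP, WIF1 and DKK proteins block the ligand or the co-receptor, R-spondins keep Frizzled receptors on the cell surface, and in the female tract the pathway is known for shaping the Müllerian duct, from which the oviduct and uterus form.

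Values are normalized counts, that is, reads per gene divided by the size factor of the library, and they are listed for LF/LCL cows in the order 617, 79 and 527 and for SF/SCL cows in the order 856, 489215 and 97. The uniquely aligned reads counted in genes, which are fewer than the reads sequenced, numbered 25652651, 28659214 and 29836083 in LF/LCL and 34193164, 25472906 and 23899117 in SF/SCL. A single read was worth 0.760 (cow 856) to 1.33 (cow 489215) normalized counts, and a gene with 0 reads may still have had up to 3 reads expected, for counting error alone. Log2 fold changes are SF/SCL over LF/LCL on the log2(value + 1) scale, so that negative values mean higher counts in LF/LCL, and the scale understates the change of low genes. Counts depend on transcript length, which was not used here, so levels are compared between cows and not between genes.

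Of the SF/SCL cows, cow 489215 stood apart from the other 5. Among the 15387 genes tested, it had the lowest value of all libraries for 35.7% and the highest for 36.7%. For the 43 WNT genes tested, it was lowest for 16 and highest for 10. The next cow in this respect, cow 856, was lowest or highest for 38.0% of all genes tested and for 16 of the WNT genes. Each result below is therefore given with and without cow 489215 where it matters, a choice made with the values known. For this cow, differences of the animal, the dissection and the RNA cannot be told apart.

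Markers of the oviduct wall were present in all 6 libraries, in amounts that differed between the groups and between the SF/SCL cows. Of 11 ciliated-cell genes found, 0 were at 0 in any library, and their summed count was 22053, 21150 and 17257 in LF/LCL and 40404, 14047 and 40288 in SF/SCL. Their most abundant gene, FOXJ1, had 6276, 5421 and 3436 against 12042, 2609 and 11225. By this sum and FOXJ1, cows 856 and 97 lay above the LF/LCL cows and cow 489215 below them. Cow 489215 was lowest for 5 of the 11 genes, against 35.7% of all genes tested. For 3 others, DNAI1, CCDC39 and SNTN, every SF/SCL cow was above every LF/LCL cow, against 9.51% of all genes. DNAI1 had 588, 475 and 510 against 1621, 783 and 1328.

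The 11 genes of secretory and general epithelium, none at 0, summed to 44387, 32820 and 30746 in LF/LCL and 321584, 71298 and 383488 in SF/SCL. Most of this came from OVGP1, the oviductal glycoprotein of secretory cells, with 287, 1782 and 1950 in LF/LCL and 271794, 730 and 325158 in SF/SCL. OVGP1 was thus high in cows 856 and 97 and low in the other 4, including cow 489215. Without OVGP1 the sums were 44100, 31037 and 28796 against 49790, 70569 and 58330, without overlap. Of the 10 epithelial genes tested, 5 were higher in every SF/SCL cow, among them EPCAM and KRT7, against 9.51% of all genes. The other 5 overlapped between the groups. Their log2 fold changes were 0.81 for PAX8, 0.89 for MUC1, 0.66 for KRT19, -0.07 for CLDN4 and 0.01 for GRHL2. Without cow 489215 they were 1.35, 0.53, 0.28, -0.88 and 1.09 in the same order, and PAX8 and GRHL2 no longer overlapped.

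Smooth muscle genes (8 found, none at 0) summed to 847464, 783032 and 728721 in LF/LCL and to 339479, 1227276 and 399048 in SF/SCL, with ACTA2 the most abundant. Fibroblast genes (9 of 9, none at 0, led by COL3A1) summed to 408709, 520321 and 492951 against 204068, 306854 and 213896, without overlap. Both lists were thus lower in cows 856 and 97 than in every LF/LCL cow, while cow 489215 had the highest smooth muscle sum of all. Of the 9 fibroblast genes, 5 were higher in every LF/LCL cow, against 8.6% of all genes. PDGFRA, DCN, THY1 and DPT overlapped between the groups, DPT also without cow 489215. The 6 mesothelial genes, led by MSLN, summed to 2520, 3010 and 3388 against 26272, 3499 and 26747, and CALB2 was at 0 in cows 79 and 489215. MSLN and WT1 made up most of this sum, and the list did not move together. LRRN4 had 283, 412 and 175 in LF/LCL and 3.80, 5.32 and 16.3 in SF/SCL, and BNC1 had 68.0, 97.6 and 73.8 against 23.5, 16.0 and 19.5, both higher in every LF/LCL cow. BNC1, the 1 mesothelial gene tested with 6 cows, had a log2 fold change of -1.97 (adjusted p = 0.367 from limma and 0.000193 from DESeq2).

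Endothelial genes (8 found, none at 0, led by VWF) summed to 14631, 18270 and 14202 against 11650, 17776 and 12293, and leukocyte genes (9, none at 0, led by CSF1R) to 2528, 3429 and 4039 against 3682, 2202 and 3248. The nerve and Schwann cell list of 4 genes summed to 5585, 4346 and 2952 against 32354, 9060 and 29127, none at 0 and nearly all of it S100B, and without S100B to 185, 231 and 368 against 68.4, 208 and 101. Leukocyte sums overlapped between the groups. So did the endothelial ones, but only through cow 489215. Without it, 7 of the 8 endothelial genes were higher in every LF/LCL cow, against 24.9% of all genes. The 5 posterior HOX and uterine epithelial genes found, led by HOXA10, summed to 2560, 2878 and 2362 against 855, 6309 and 958. HOXA13 was at 0 in all libraries, and HOXA11 had 26.6 normalized counts in cow 489215 and at most 5.32 in the others.

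**Figure D1:**
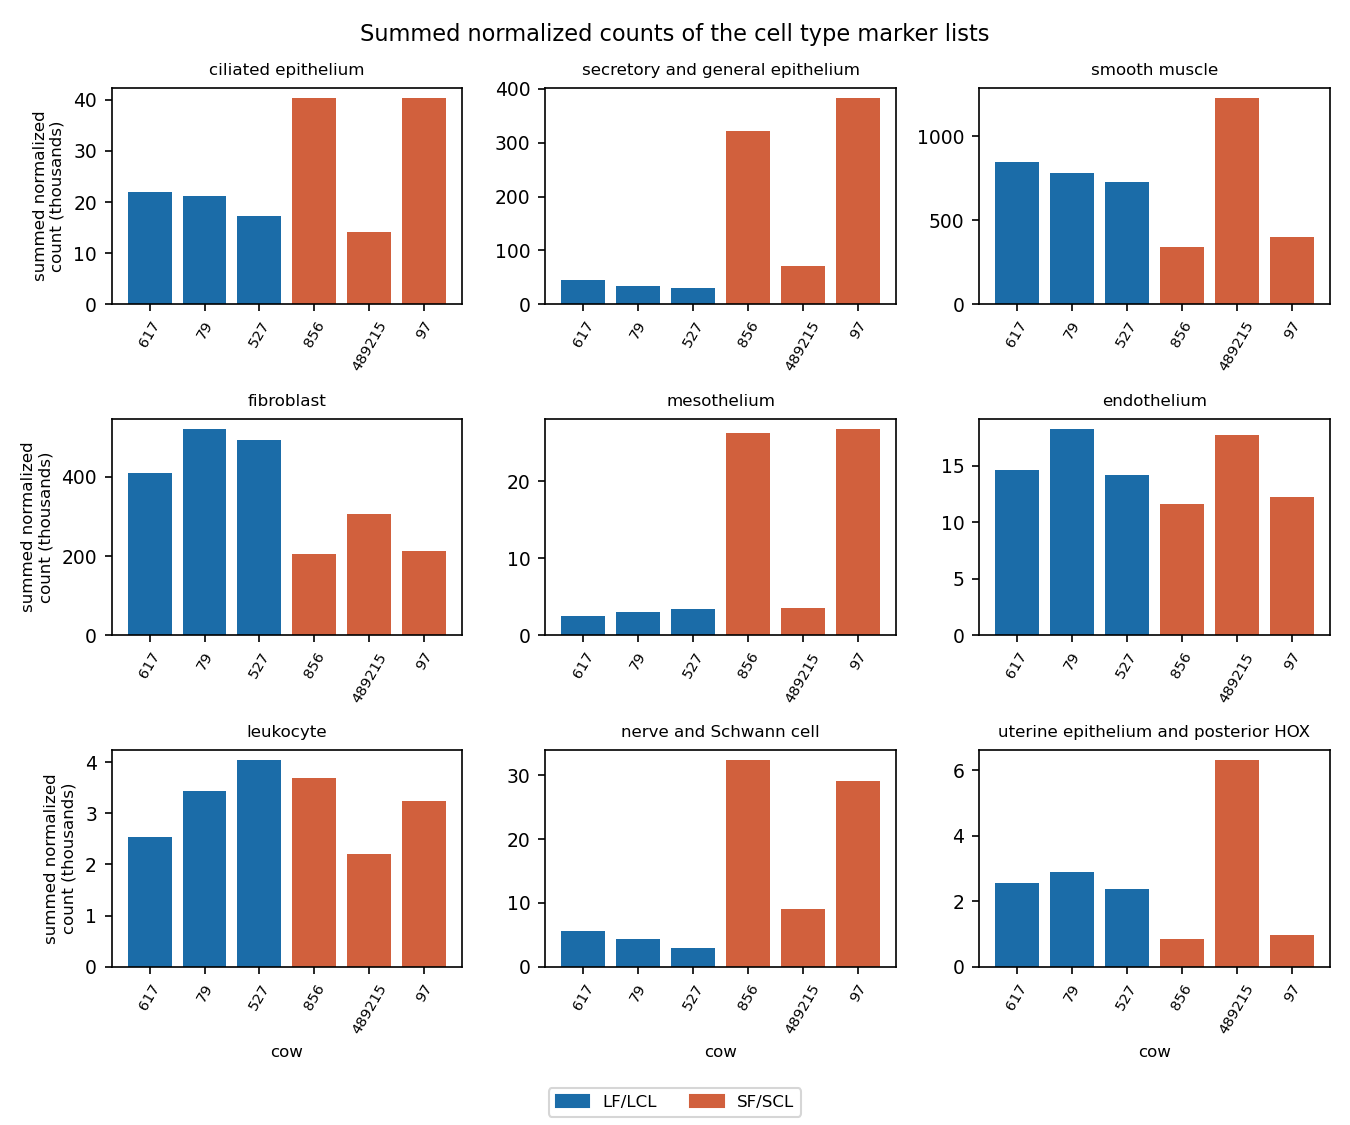
Summed normalized counts (axes from 0) of each cell type marker list in each cow, with LF/LCL cows in blue and SF/SCL cows in orange. Cows 856 and 97 have like sums in each panel, and cow 489215 differs from them, for example with a smooth muscle sum of 1227276 against 339479 and 399048.

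In whole tissue, fewer cells of a type and less RNA per cell cannot be told apart. The part of these differences in tissue composition in the results below was not tested.

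With all 6 cows, 6 WNT genes had higher counts in every LF/LCL cow than in any SF/SCL cow: the ligand WNT5A, the receptor FZD6, the inhibitors SFRP4 and WIF1, the R-spondin RSPO3 and the transcription factor TCF7L2. The differences ran from 1.51-fold for FZD6 to 2.34-fold for WNT5A on the log scale of the test. In the other direction, 0 of the 43 WNT genes tested had groups without overlap. Over all genes tested, 8.6% were without overlap and higher in LF/LCL, and 9.51% were so in SF/SCL.

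None of these differences passed the adjusted threshold in limma or edgeR with all 6 cows. In limma with Benjamini-Hochberg adjustment over all genes tested, 0 of the 43 WNT genes and 0 of all 15387 genes (0%) had an adjusted p-value under 0.05, and edgeR's quasi-likelihood test also called 0. DESeq2 called 1 of the 43, FZD6, where it called 2.66% of all genes. Unadjusted p-values from limma were under 0.05 for 3 WNT genes, FZD6, RSPO3 and SFRP4, all higher in LF/LCL, where 4.48% of all genes were, and for 0 WNT genes higher in SF/SCL, where 4.19% of all genes were. With 3 cows per group, an exact permutation test of a single gene cannot give a p-value below 0.1.

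The median log2 fold change of the 43 genes was -0.28, and that of all genes tested was -0.02. A negative log2 fold change was found for 34 WNT genes (79.1%) and for 51.4% of all genes. In edgeR with TMM it was found for 32 of the 43 and for 45.6% of all genes.

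These counts depended on cow 489215. Without it, limma had 46 WNT genes to test and called 7, with FZD6, RSPO3 and TCF7 higher in LF/LCL (3 genes) and WNT5B, WNT7B, FZD3 and FZD7 higher in SF/SCL (4 genes). WNT5B and WNT7B were outside the fit of 6 cows because their SD exceeded their mean, and both were lowest in the cow left out. The same fit called 7.92% of all genes with LF/LCL higher and 10.3% with SF/SCL higher, so that the WNT genes were called about as often as genes in general. In edgeR without this cow, 6 of these 7 genes were called, all but TCF7, where 18.1% of all genes were. DESeq2 without it called 13 WNT genes, where it called 25.3% of all genes: these 7 with WNT5A, FZD2, SFRP4 and AXIN2, higher in LF/LCL, and FZD1 and FZD10, higher in SF/SCL.

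Unadjusted p-values under 0.05 in the limma fit without cow 489215 numbered 8 with LF/LCL higher, where 15.9% of all genes were, and 6 with SF/SCL higher, where 18% were. Groups without overlap then numbered 12 of the 46 with LF/LCL higher, against 24.9% of all genes, and 6 with SF/SCL higher, against 27.1%. The 12 were the 6 named for all cows with FZD2, FZD9, SFRP1, LGR6, AXIN2 and TCF7, and the 6 were WNT5B, WNT7B, WNT9A, FZD1, FZD3 and FZD7. In limma the median log2 fold change of the 46 genes was -0.10, with 28 negative and 18 positive values, where 50.1% of all genes were negative around a median of -0.0009. The sign was the other one than with 6 cows for 11 genes. In edgeR the median was -0.16 with 6 cows (43 genes), where that of all genes was 0.04, and -0.25 without cow 489215, where that of all genes was -0.01. In DESeq2 it was -0.16 against 0.06 and, without that cow, -0.26 against -0.02. Leaving out cow 617 gave 3 WNT genes of 44 without overlap and higher in SF/SCL (WNT7A, FZD1 and FZD10), against 13.2% of all genes. The median was then -0.21 in limma. Leaving out cow 856 gave 1 of 43 (WNT2B), against 12.9%, and a median of -0.18.

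**Figure D2:**
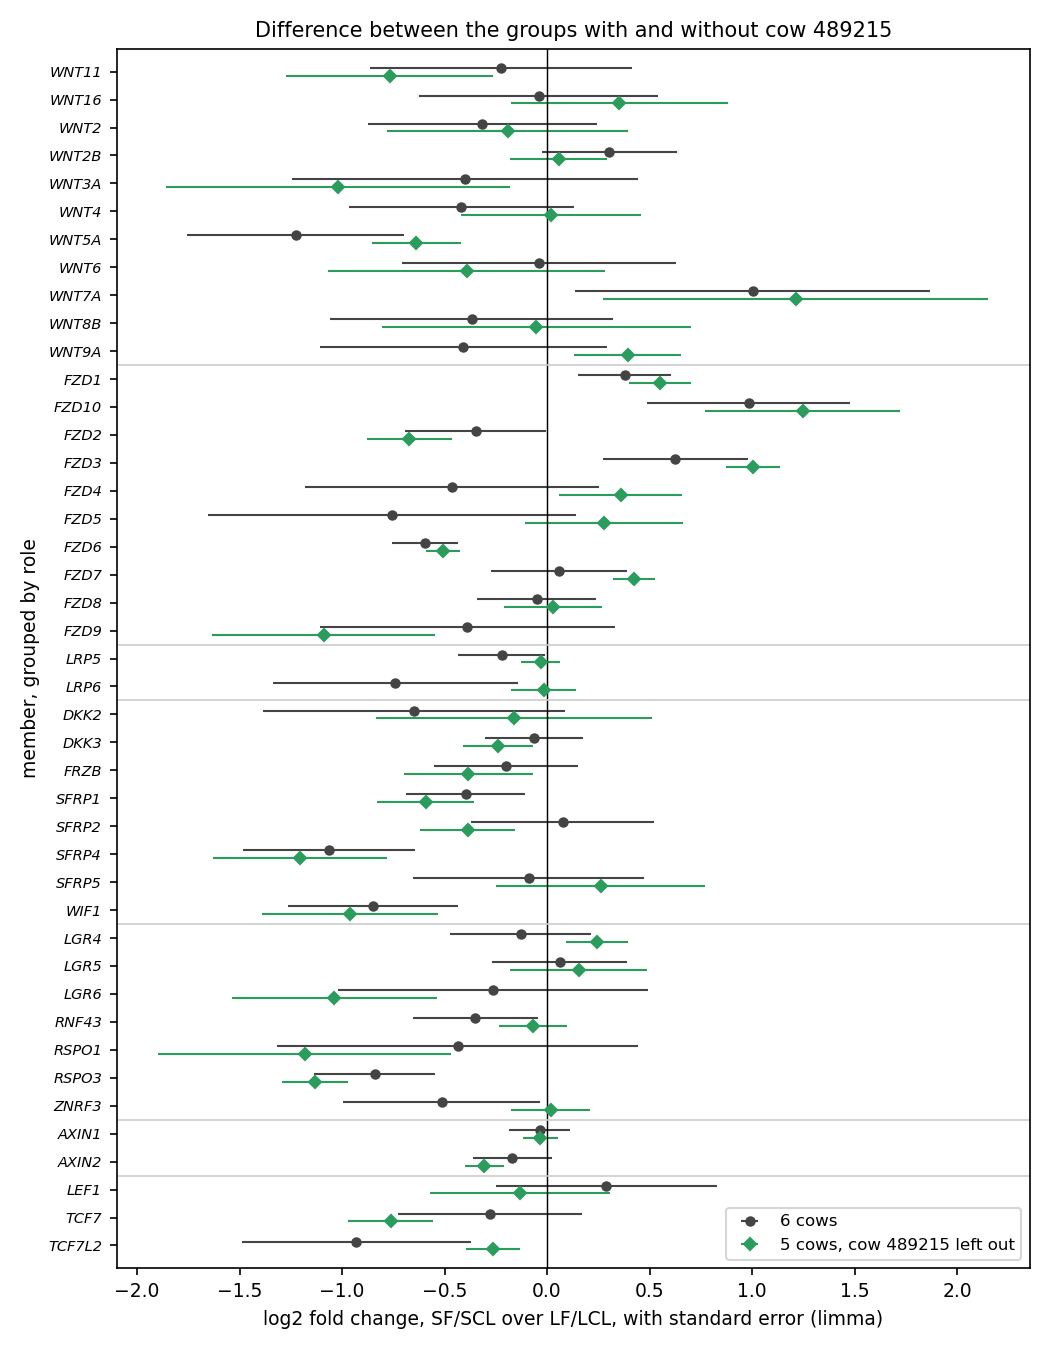
Log2 fold change (SF/SCL over LF/LCL) with its standard error from limma for the 43 WNT genes tested, grouped by role, for 6 cows (circles) and for 5 cows without cow 489215 (diamonds). The errors are smaller without that cow for FZD3 (0.35 to 0.13) and RSPO3 (0.30 to 0.16), and LRP6 moves from -0.74 to -0.02.

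Among the ligands, 11 of 19 passed the filters (mean above 5 and above the SD). WNT5A (ENSBTAG00000020221), which acts mainly outside the beta-catenin route and is expressed by mesenchyme of the female tract, had 643, 406 and 536 normalized counts in LF/LCL and 307, 97.2 and 362 in SF/SCL. Every LF/LCL cow lay above every SF/SCL cow, with cow 489215 far below the rest, although 362 and 406 are close. Its log2 fold change was -1.23 (SE, standard error, 0.53; adjusted p = 0.598 from limma), and -0.64 (SE 0.22, adjusted p = 0.0911) without cow 489215. DESeq2 without that cow called it (adjusted p = 0.0358).

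WNT5B (ENSBTAG00000001341), the close relative of WNT5A, was higher than in LF/LCL in 2 of the 3 SF/SCL cows. Its counts were 40.8, 53.5 and 25.5 in LF/LCL and 238, 24.0 and 267 in SF/SCL. WNT7B (ENSBTAG00000009532), an epithelial ligand, had 26.2, 27.2 and 13.2 against 124, 2.66 and 111. Both were several times higher in cows 856 and 97 than in any LF/LCL cow and lowest in cow 489215, so that the groups overlapped.

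Because their SD exceeded their mean, WNT5B and WNT7B were outside the fit of 6 cows. With the filter on the mean alone, their log2 fold changes were 1.57 (SE 0.96, adjusted p = 0.732 from limma) and 0.74 (SE 1.39, adjusted p = 0.912). Without cow 489215, WNT5B had a log2 fold change of 2.69 (SE 0.36, adjusted p = 0.00669) and WNT7B of 2.41 (SE 0.42, adjusted p = 0.0136). The filters were applied anew to the 5 libraries. In the same cows 856 and 97, the epithelial and ciliated-cell sums were also higher than in LF/LCL. In cow 489215, where WNT5B and WNT7B were lowest, the epithelial sum was above every LF/LCL cow (71298) and the ciliated-cell sum below (14047). Of the 10 epithelial genes tested, cow 489215 was highest for 7 and lowest for 2, PAX8 (469) and GRHL2 (112). Over all genes tested these shares were 36.7% and 35.7%. OVGP1, at 730 in this cow, was inside the LF/LCL range. The mesothelial sum was also higher in cows 856 and 97, through MSLN and WT1, while LRRN4 and BNC1 of that list were lower. Without cow 489215, LRRN4 and BNC1 had log2 fold changes of -4.91 and -1.83 (adjusted p = 0.00540 and 0.0155 from limma). The part of these cells in the WNT5B and WNT7B values was not tested.

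WNT16 had counts of 231, 766 and 653 in LF/LCL and 472, 274 and 821 in SF/SCL. Its spread within each group (SD 282 and 277, n = 3 each) was far larger than the difference between the group means of 550 and 522. WNT9A had 61.8, 71.3 and 69.4 against 83.6, 16.0 and 94.3, so that cow 489215 alone was low, by 4.47-fold against the median of the other cows. WNT9B, a ligand needed for Müllerian duct growth, was near the floor with 2 to 8 reads in 4 cows and 0 in cow 489215, but had 202 reads in cow 856.

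The other ligands tested overlapped between the groups. WNT7A, required for patterning of the oviduct and uterus, had 82.7, 16.9 and 7.03 in LF/LCL and 45.6, 33.3 and 59.6 in SF/SCL, a log2 fold change of 1.00 with an SE of 0.87. Its overlap came through cow 617, and without that cow it was higher in every SF/SCL cow. WNT4, needed to form the Müllerian duct, ran from 16.0 to 54.2 and WNT2B from 246 to 501, each with its extreme in cow 489215, the lowest for WNT4 and the highest for WNT2B. WNT11 ran from 21.3 to 110.5, WNT2 from 20.7 to 69.4, WNT6 from 10.5 to 52.3, WNT3A from 1.88 to 12.6 and WNT8B from 2.66 to 14.9. WNT1, WNT3, WNT8A, WNT10A and WNT10B did not reach a mean of 5, with at most 9 reads in a library, and were not tested. WNT8A, with 0, 0 and 1 reads in LF/LCL and 3, 1 and 1 in SF/SCL, had an unadjusted p-value of 0.0486 (adjusted p = 0.603 from limma) without a filter, on counts no higher than the 3 reads that a count of 0 allows.

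**Figure D3:**
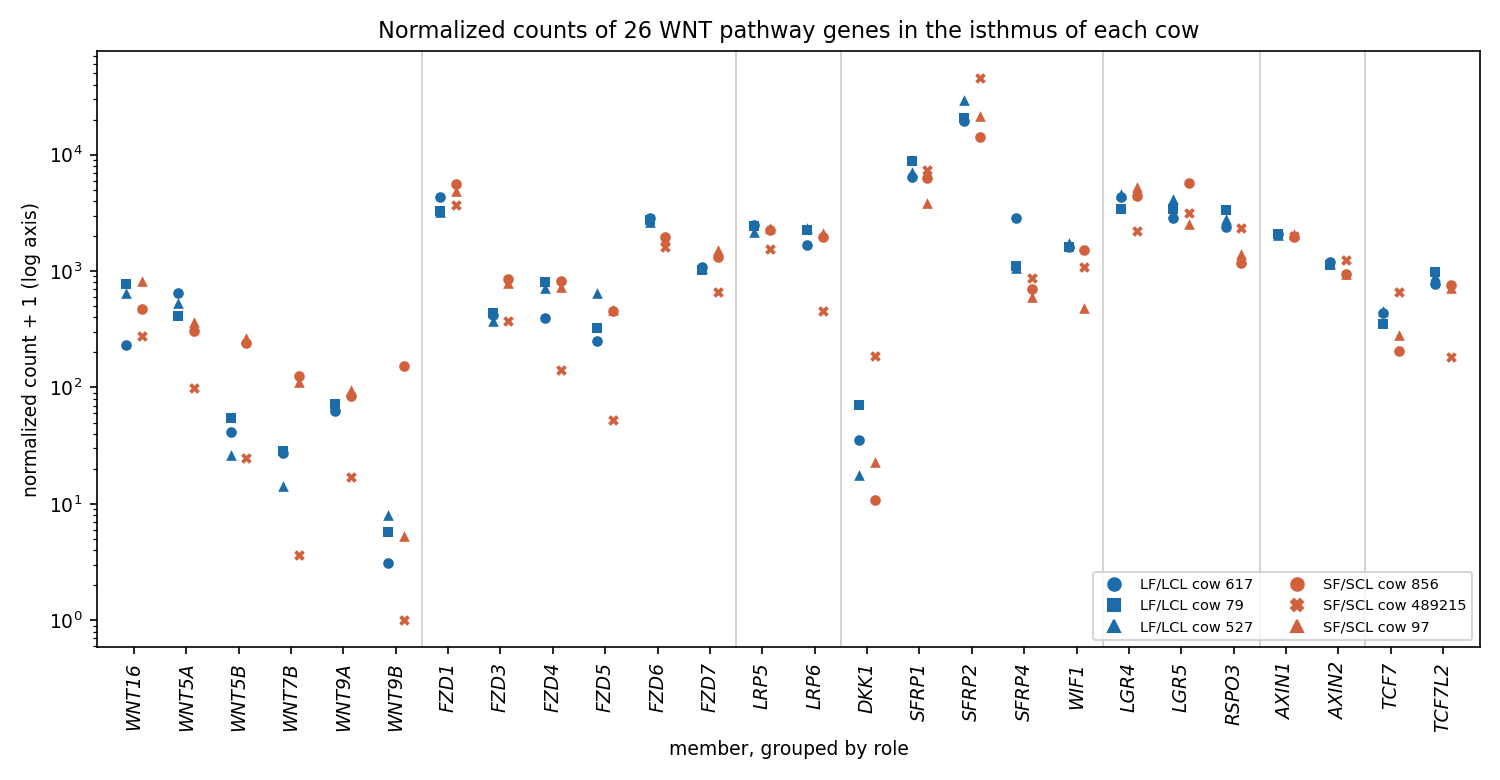
Normalized count plus 1 (log axis) of 26 WNT genes in each cow, grouped by role, with LF/LCL cows in blue and SF/SCL cows in orange and cow 489215 as a cross. FZD6 and RSPO3 show every LF/LCL point above every SF/SCL point, and WNT5B and WNT7B show cows 856 and 97 above all others.

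The Frizzled receptors were all detected, and all 10 were tested. FZD6 (ENSBTAG00000010529), a receptor known for planar cell polarity, had 2848, 2734 and 2662 normalized counts in LF/LCL (2748 ± 93.6, SD, n = 3) and 1965, 1612 and 1900 in SF/SCL (1826 ± 188, SD, n = 3). The groups were well apart, and the range within each was narrow. The log2 fold change was -0.59 (SE 0.16, adjusted p = 0.405 from limma), a 1.51-fold difference. It did not pass in limma with 6 cows, passed in DESeq2 (adjusted p = 0.0453), and passed in limma without cow 489215, where it was -0.51 (SE 0.08, adjusted p = 0.0120).

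FZD3 (ENSBTAG00000035084), the receptor that shares planar polarity roles with FZD6, differed in the other direction in 2 of the 3 SF/SCL cows. Its counts were 416, 439 and 372 in LF/LCL and 850, 373 and 791 in SF/SCL. Cow 489215 lay within the LF/LCL range, and the other SF/SCL cows lay well above every LF/LCL cow. The log2 fold change of 0.63 (SE 0.35, adjusted p = 0.712 from limma) was 1.00 (SE 0.13, adjusted p = 0.00608) without cow 489215.

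FZD1, FZD2 and FZD7 form a closely related subfamily of receptors. FZD7 (ENSBTAG00000002283) had 1083, 1023 and 1058 in LF/LCL and 1332, 659 and 1505 in SF/SCL. FZD1 had 4324, 3273 and 3231 against 5614, 3661 and 4885. In both genes cows 856 and 97 were above all LF/LCL cows, while cow 489215 was the lowest of all for FZD7 and inside the LF/LCL range for FZD1.

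The FZD7 log2 fold change was 0.06 (SE 0.33) with 6 cows and 0.42 (SE 0.10, adjusted p = 0.0356 from limma) without cow 489215. For FZD1 it was 0.38 (SE 0.23) and, without that cow, 0.55 (SE 0.15, adjusted p = 0.0518), which did not pass in limma but did in DESeq2 (adjusted p = 0.0148). FZD2 had 939, 839 and 897 against 441, 1097 and 709, with cows 856 and 97 below and cow 489215 above all LF/LCL cows, and a log2 fold change of -0.35 (SE 0.34). Without cow 489215, FZD2 passed in DESeq2 (log2 fold change -0.64, adjusted p = 0.0288) and not in limma or edgeR. Without cow 856 the FZD2 log2 fold change was -0.014 (adjusted p = 0.986 from limma).

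Low values in cow 489215 set FZD4 and FZD5 apart. FZD5 had 250, 322 and 651 in LF/LCL and 450, 51.9 and 458 in SF/SCL, and FZD4, which is also the receptor of norrin, had 394, 797 and 715 against 827, 140 and 735. Cow 489215 was 8.66-fold below the median of the other cows for FZD5 and 5.26-fold below for FZD4, and the remaining cows of the groups overlapped. FZD10 had 588, 295 and 217 against 1152, 461 and 552, FZD8 ran from 89.2 to 118 and FZD9 from 6.50 to 32.0, all with overlapping groups. FZD9 was highest in cow 489215, and without that cow it was higher in every LF/LCL cow, with a log2 fold change of -1.09 (SE 0.54, adjusted p = 0.212 from limma) against -0.39 (SE 0.72) with 6 cows. This rested on few reads, 22, 17 and 11 in LF/LCL against 9 in cow 856 and 6 in cow 97. FZD10 was called by DESeq2 without cow 489215 (log2 fold change 1.21, adjusted p = 0.0336) and not by limma or edgeR. In limma its log2 fold change was 0.98 (SE 0.50) with 6 cows and 0.59 without cow 856. Without cow 617 it was 1.39, with FZD10 higher in every SF/SCL cow.

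Of the co-receptors, LRP5 had 2469, 2443 and 2177 normalized counts in LF/LCL and 2261, 1554 and 2356 in SF/SCL. LRP6 had 1683, 2268 and 2326 against 1957, 454 and 2143. For both genes cow 489215 was lowest, by 4.72-fold against the median of the other cows for LRP6, and the other 5 cows overlapped. Without it the log2 fold changes were -0.03 (SE 0.10) for LRP5 and -0.02 (SE 0.16) for LRP6.

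**Figure D4:**
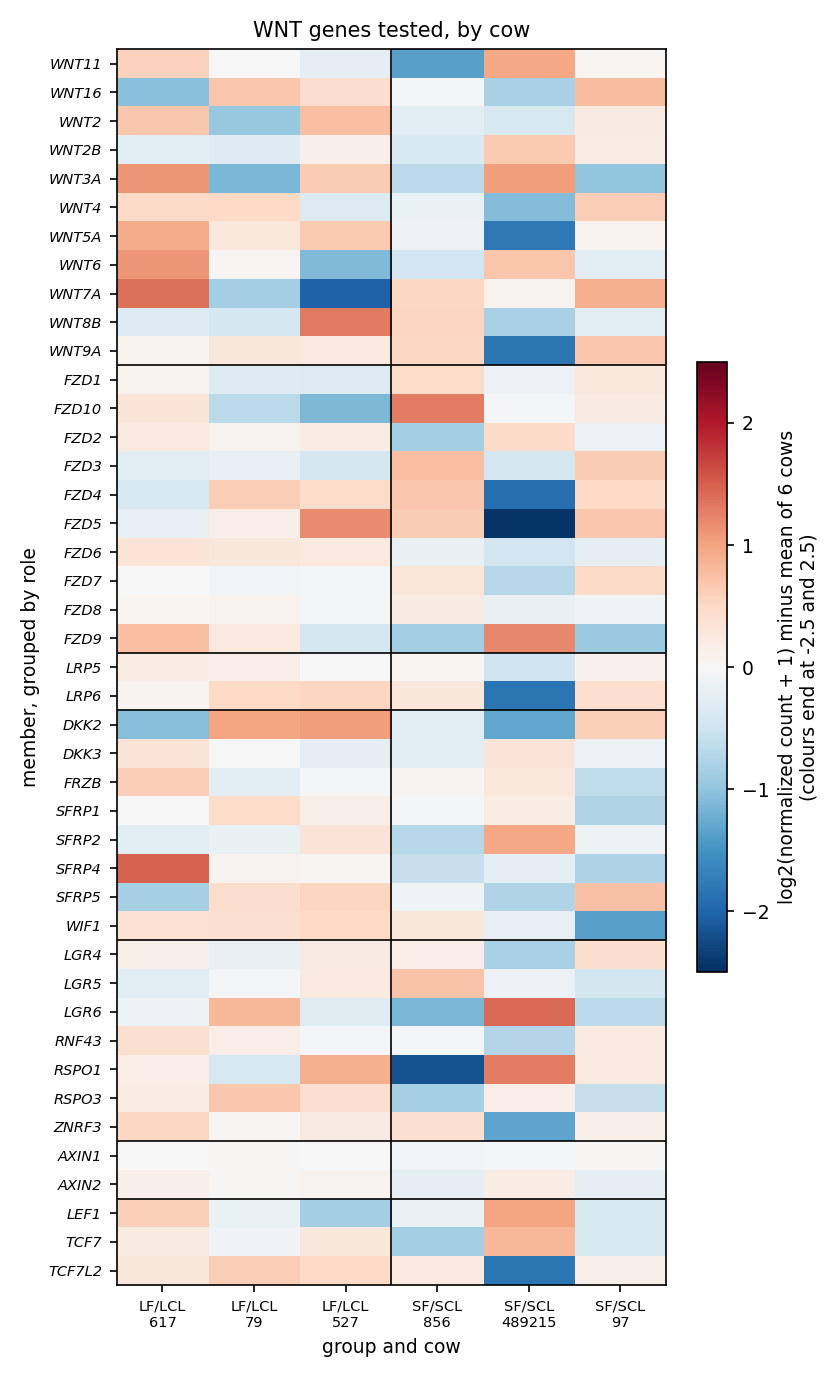
Log2(normalized count + 1) of the 43 WNT genes tested, minus the mean of the 6 cows, by cow (columns) and gene (rows grouped by role), with red above and blue below the mean. The darkest blue is FZD5 in cow 489215, and AXIN1 is nearly white in every column.

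Of the secreted inhibitors, 8 of 10 were tested. SFRP4 (ENSBTAG00000015366), a decoy that binds WNT through a Frizzled-like domain, had 2864, 1096 and 1060 in LF/LCL and 695, 872 and 603 in SF/SCL. WIF1 (ENSBTAG00000014758), which binds WNT through another domain, had 1609, 1621 and 1752 against 1512, 1074 and 480. Neither gene overlapped between the groups, but SFRP4 was high mainly in cow 617 and WIF1 low mainly in cow 97, and cow 856 lay close to the LF/LCL cows for WIF1.

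The log2 fold change of SFRP4 was -1.06 (SE 0.42, adjusted p = 0.553 from limma) and that of WIF1 -0.85 (SE 0.42, adjusted p = 0.647). Without cow 489215 they were -1.20 (SE 0.43, adjusted p = 0.101) and -0.96 (SE 0.43, adjusted p = 0.172), so neither passed in limma, while DESeq2 without that cow called SFRP4 (log2 fold change -1.37, adjusted p = 0.00587). Without cow 617 the SFRP4 log2 fold change was -0.59 (adjusted p = 0.867 from limma), and without cow 97 that of WIF1 was -0.38 (adjusted p = 0.749). The fibroblast sum was also higher in every LF/LCL cow than in any SF/SCL cow, but in another order of the cows. Within LF/LCL it was lowest in cow 617 (408709), where SFRP4 was highest. It was lowest of all in cow 856 (204068), the SF/SCL cow with the highest WIF1. The part of the fibroblast genes in the SFRP4 and WIF1 values was not tested.

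SFRP2 and SFRP1 had the highest mean counts among the inhibitors, a ranking that also depends on transcript length. SFRP2 had 19599, 20655 and 29273 in LF/LCL and 14228, 45694 and 21373 in SF/SCL. SFRP1 had 6370, 8903 and 7157 against 6312, 7384 and 3819. The groups overlapped for both, and SFRP2 was highest in cow 489215, with a log2 fold change of 0.08 (SE 0.45) that was -0.39 (SE 0.23) without it. For SFRP1 it was -0.40 (SE 0.29), and without cow 489215, where every LF/LCL cow lay above both SF/SCL cows, -0.59 (SE 0.23, adjusted p = 0.132 from limma). Without cow 97 the SFRP1 log2 fold change was -0.12 (adjusted p = 0.866 from limma).

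DKK1, which blocks LRP5 and LRP6, had 34.5, 70.4 and 16.7 in LF/LCL and 9.88, 186 and 21.7 in SF/SCL. It was 8.60-fold above the median of the other cows in cow 489215, and its SD exceeded its mean, so it was not tested with 6 cows. Without that cow its log2 fold change was -1.18 (SE 0.68, adjusted p = 0.275 from limma), with overlap. DKK2 ran from 58.6 to 302, DKK3, a divergent member of the family, from 1761 to 2673, FRZB from 323 to 767 and SFRP5 from 38.7 to 117, with overlapping groups. DKK4 had at most 2 reads in a library.

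In the R-spondin axis, 7 of 9 genes were tested. RSPO3 (ENSBTAG00000008121) is the secreted protein that, with an LGR receptor, removes the ligases RNF43 and ZNRF3 and so keeps Frizzled on the cell surface. It had 2398, 3361 and 2808 in LF/LCL (2856 ± 483, SD, n = 3) and 1183, 2365 and 1405 in SF/SCL (1651 ± 628, SD, n = 3). Cows 856 and 97 were far below the LF/LCL cows, and cow 489215 lay just under the lowest of them.

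The RSPO3 log2 fold change was -0.84 (SE 0.30, adjusted p = 0.496 from limma), a 1.79-fold difference, and did not pass. Without cow 489215 it was -1.13 (SE 0.16, adjusted p = 0.00756), a 2.19-fold difference. The fibroblast sum showed the same order of cows 856, 97 and 489215 and the LF/LCL cows above them, and its part in the RSPO3 values was not tested.

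The receptors of R-spondins differed by less than the spread between cows. LGR4 had 4297, 3418 and 4566 in LF/LCL and 4375, 2214 and 5291 in SF/SCL. LGR5, known as a stem cell marker in other epithelia, had 2885, 3380 and 4133 against 5716, 3154 and 2547. Both overlapped between the groups, with log2 fold changes of -0.13 (SE 0.35) and 0.06 (SE 0.33).

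RNF43 ran from 358 to 784 and ZNRF3 from 130 to 471, each lowest in cow 489215. RSPO1 ran from 55.4 to 615 and LGR6 from 11.4 to 71.9, each highest in cow 489215 and lowest in cow 856. Without cow 489215 the log2 fold change of LGR6 went from -0.27 (SE 0.76) to -1.04 (SE 0.50, adjusted p = 0.200 from limma), without overlap, and that of RSPO1 from -0.44 (SE 0.88) to -1.18 (SE 0.71, adjusted p = 0.296), with overlap. RSPO2 and RSPO4 had 1 read each over all 6 libraries.

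Inside the cell, AXIN1 (ENSBTAG00000016577), a scaffold of the complex that degrades beta-catenin, varied least of the WNT genes tested. It had 2061, 2091 and 2034 normalized counts in LF/LCL and 1952, 2004 and 2080 in SF/SCL. The highest cow was 1.07-fold above the lowest, where the median of the 43 genes was 3.39-fold. Its log2 fold change was -0.04 (95% interval -0.39 to 0.32).

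AXIN2, a feedback inhibitor that beta-catenin itself induces, had 1199, 1120 and 1166 in LF/LCL and 941, 1247 and 936 in SF/SCL. Cows 856 and 97 were below the LF/LCL cows and cow 489215 above them. The log2 fold change was -0.17 (SE 0.19), and -0.31 (SE 0.10, adjusted p = 0.0733 from limma) without cow 489215, which did not pass in limma but did in DESeq2 (adjusted p = 0.0421).

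The transcription factor TCF7 (ENSBTAG00000001002) had 431, 347 and 453 in LF/LCL and 205, 660 and 281 in SF/SCL. As for AXIN2, cows 856 and 97 were lowest and cow 489215 highest. With 6 cows its log2 fold change was -0.28 (SE 0.45, adjusted p = 0.908 from limma). TCF7 passed in limma without cow 489215 (log2 fold change -0.76, SE 0.21, adjusted p = 0.0492) and in DESeq2 without it (adjusted p = 0.00971) but not in edgeR (adjusted p = 0.0522).

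TCF7L2 (ENSBTAG00000016462) had 777, 975 and 905 in LF/LCL and 760, 182 and 710 in SF/SCL. The groups did not overlap, but 760 and 777 are nearly equal and the difference rested on cow 489215. Its log2 fold change of -0.93 (SE 0.56, adjusted p = 0.736 from limma) was -0.26 (SE 0.13) without that cow. LEF1, the remaining factor, ran from 58.0 to 210 and was highest in cow 489215.

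Other genes of the pathway were read from a list of 73 symbols, of which 72 were found, GSK3B under 2 identifiers between which reads could have been divided. Of these, 67 genes were tested and 0 passed in limma. Unadjusted p-values under 0.05 were found for TLE2, AES and DAAM2, the 3 with LF/LCL higher (4.48% of all genes), and for CTBP2, the 1 with SF/SCL higher (4.19% of all genes). DESeq2 called 1 of the 67, CTBP2 (adjusted p = 0.0352), where it called 2.66% of all genes. With 6 cows, 8 of the 67 were higher in every LF/LCL cow, where 8.6% of all genes were so, and 4 were higher in every SF/SCL cow, against 9.51%.

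Without cow 489215, limma called 23 of the 67, with LF/LCL higher for 10, where it called 7.92% of all genes, and SF/SCL higher for 13, against 10.3%. Unadjusted p-values under 0.05 then numbered 33, of which 13 had LF/LCL higher (15.9% of all genes) and 20 had SF/SCL higher (18% of all genes). Without cow 617, and likewise without cow 527, 2 of 66 had an unadjusted p-value under 0.05, against 5.91% and 4.32% of all genes.

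Of the 14 nuclear cofactors, which hold both coactivators such as BCL9 and PYGO1 and corepressors such as the TLE and CTBP proteins, 4 were higher in LF/LCL without overlap and 1 was higher in SF/SCL, against 8.6% and 9.51% of all genes. The log2 fold change was negative for 7 and positive for 7. TLE2, a corepressor of TCF/LEF factors, had 673, 540 and 794 in LF/LCL and 317, 523 and 269 in SF/SCL, and AES, a short relative of the TLE proteins, had 7776, 7268 and 7343 against 3437, 5954 and 3966. CTBP2, another corepressor, had 3870, 3659 and 3223 against 5031, 5565 and 5550. None of the 3 overlapped between the groups, with TLE2 and AES higher in every LF/LCL cow and CTBP2 higher in every SF/SCL cow, cow 489215 included.

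Their log2 fold changes were -0.90 (SE 0.32, adjusted p = 0.496 from limma) for TLE2, -0.78 (SE 0.24, adjusted p = 0.437) for AES and 0.59 (SE 0.16, adjusted p = 0.405) for CTBP2. Without cow 489215 all 3 passed, at -1.18, -1.01 and 0.56. TLE4 and CTBP1 were also higher in LF/LCL without overlap, at log2 fold changes of -0.45 and -0.23.

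The TLE genes did not share a direction. TLE3 had 1399, 1507 and 1374 in LF/LCL and 3082, 1373 and 3319 in SF/SCL, with cows 856 and 97 above all LF/LCL cows and cow 489215 level with the lowest of them. Its log2 fold change was 0.76 (SE 0.35, adjusted p = 0.630 from limma) and 1.17 (SE 0.09, adjusted p = 0.00230) without cow 489215. TLE1 overlapped between the groups, at 0.11. Without cow 489215, limma called 8 of the 14 nuclear cofactors: TLE2, TLE4 and AES higher in LF/LCL (3 genes) and BCL9, BCL9L, PYGO1, TLE3 and CTBP2 higher in SF/SCL (5 genes), against 7.92% and 10.3% of all genes.

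For DAAM2, a formin of the planar polarity branch, the counts were 1903, 1885 and 2364 in LF/LCL and 1073, 354 and 1269 in SF/SCL. The groups did not overlap and cow 489215 was lowest. The log2 fold change was -1.38 (SE 0.49, adjusted p = 0.496 from limma) and -0.80 (SE 0.14, adjusted p = 0.0137) without cow 489215. SCRIB of the same branch was also higher in LF/LCL without overlap, at a log2 fold change of -0.24. So were the cytoplasmic transducers DVL2 and DVL3, at -0.15 and -0.38. Without cow 489215, SCRIB, DVL2 and DVL3 were each at -0.16. In that fit limma called 3 of the 9 planar polarity genes tested. These were DAAM2, with LF/LCL higher, and 2 genes with SF/SCL higher, against 7.92% and 10.3% of all genes.

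CTNNB1, which encodes beta-catenin, had 22319, 21439 and 20567 in LF/LCL and 25507, 24685 and 23463 in SF/SCL. The SF/SCL cows were all higher, by a log2 fold change of 0.20 (SE 0.18, adjusted p = 0.845 from limma). The co-receptor PTK7 and the kinase CSNK1D were likewise higher in SF/SCL without overlap, both at a log2 fold change of 0.26.

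Of the genes for WNT export, PORCN, which attaches the lipid, had 245, 319 and 418 in LF/LCL and 163, 322 and 231 in SF/SCL. WLS, the carrier that brings WNT to the surface, had 4396, 4036 and 5254 against 4680, 5134 and 5670. The groups overlapped for both, with log2 fold changes of -0.47 (SE 0.35) and 0.18 (SE 0.18). Without cow 489215, PORCN was higher in every LF/LCL cow, at -0.72 (SE 0.28, adjusted p = 0.125 from limma). WLS still overlapped, at 0.18.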

How the data were processed

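The libraries were polyadenylated RNA of isthmus tissue, 1 per cow and 3 per group, grouped by the sample titles. The authors filtered the reads, aligned them to the masked bovine assembly UMD 3.1 with TopHat2 2.0.8 and Bowtie2 2.1.0, counted unique reads per Ensembl gene with HTSeq 0.5.4p2 and divided them by DESeq 1.12.1 size factors. Versions are from the submitters' processing notes and the study's methods. Use of the strand in counting is not given in the sources used here, so reads of overlapping antisense genes cannot be told apart. The deposited signal values are these normalized counts. Within a tolerance of 0.0006, 100% of 147696 values were whole reads, from which counts were recovered.

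Genes whose mean exceeded 5 and their SD were tested, 15387 in all, with limma 3.58.1 (trend and robust) in R 4.3.3 on log2(value + 1), with Benjamini-Hochberg adjustment over all genes tested. On recovered reads, edgeR 4.0.16 and DESeq2 1.42.0 were run as alternatives. Other pseudocounts, filters and a TMM rescaling were tried, and each cow was left out in turn. Fits of edgeR and DESeq2 without cow 489215 were added after seeing the data. Tables were made in Python 3.11.15 with pandas 2.3.3 and numpy 2.4.6, and plots with matplotlib 3.10.9.

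Members and lists were chosen with earlier results of these data known. Genes were given with all values if past the adjusted threshold in limma, in limma without any 1 cow or in DESeq2. The same held for an unadjusted p-value under 0.05, groups without overlap, the 2 highest means of a role, or a value in cow 489215 over 4-fold from the median of the others with a mean of at least 15. Of the other pathway genes, those with an unadjusted p-value under 0.05 or without overlap were named, with CTNNB1, PORCN and WLS. FZD2, FZD9, FZD10, LGR6, RSPO1, TLE3, the feedback and target genes, LRRN4 and BNC1 were singled out after their values were seen. Ampulla libraries were not analysed here. No sequences or positions were used.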

Additional observations from a re-analysis of the deposited data

How the results depend on the processing

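Groups of 3 selected cows, 1 library unlike the others and a tissue mix that varied between cows limit all results, and genes with few reads at this depth were not tested or were imprecise. Pseudocounts of 0.5 and 5, TMM rescaling and limma without trend and robust left the number of WNT genes called at 0 and moved no count by over 1.5 times. Of 24 WNT genes tested with 6 cows and followed through all settings, 15 kept their sign in all settings run and 9 did not. For the results below that changed, the cause was not tested.

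DESeq2 called 409 genes and 1 WNT gene. Without cow 489215, and chosen after seeing the data, edgeR called 2805 genes and 6 WNT genes and DESeq2 3922 and 13. The WNT genes with an unadjusted p-value under 0.05 were then 13 and 14, and the other pathway genes 33 and 32, against 33.7% and 34.4% of all genes. Leaving out each cow in turn, limma called 0 to 2827 genes and 0 to 7 WNT genes, and every number above 0 came without cow 489215. Unadjusted p-values under 0.05 numbered 2 to 14 among WNT genes and 2 to 33 among other pathway genes, against 3.94% to 33.9% of all genes. WNT genes without overlap numbered 7 to 12 with LF/LCL higher, against 10.4% to 24.9% of all genes, and 0 to 6 with SF/SCL higher, against 11.4% to 27.1%. The highest of each came without cow 489215.

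Without a filter, 5 of 55 WNT genes had an unadjusted p-value under 0.05, against 8.19% of all genes, and 2 were higher in SF/SCL without overlap, against 8.36%, the additions being WNT8A and DKK4, with at most 3 reads in a library. The median log2 fold change of the WNT genes was -0.22 with the filter on the mean alone and without a filter, and -0.16 in edgeR with TMM, in edgeR with DESeq2 size factors (-0.16) and in DESeq2 (-0.16). Leaving out each cow in limma, it ran from -0.32 to -0.10, and without cow 489215 it was -0.25 in edgeR and -0.26 in DESeq2.

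In edgeR and DESeq2 without cow 489215, the sign turned for WNT16 (0.23 and 0.23), WNT9A (0.39 and 0.39), FZD4 (0.29 and 0.29), FZD5 (0.15 and 0.15), SFRP2 (-0.38 and -0.39) and LGR4 (0.24 and 0.23). Leaving out each cow in limma, the log2 fold change ran from -0.58 to 0.35 for WNT16, -0.85 to 0.39 for WNT9A, -0.92 to 0.36 for FZD4 and -1.28 to 0.28 for FZD5. It ran from -0.17 to 0.42 for FZD7, -0.39 to 0.45 for SFRP2, -0.38 to 0.24 for LGR4, -0.27 to 0.31 for LGR5 and -0.76 to 0.078 for TCF7.

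Over the 17 settings that gave a p-value for each gene, adjusted p-values from limma, edgeR and DESeq2 ran from 2.13e-05 to 0.999 for FZD6, past the threshold in 4. They ran from 3.26e-08 to 0.999 for RSPO3 and from 1.78e-08 to 0.999 for FZD3, past it in 3 each. They ran from 0.00822 for FZD7 (3 settings) and from 0.00971 for TCF7 (2 settings), up to 0.999. In 1 setting each, DESeq2 without cow 489215, the threshold was passed by WNT5A (from 0.0358), FZD1 (from 0.0148), FZD2 (from 0.0288), FZD10 (from 0.0336), SFRP4 (from 0.00587) and AXIN2 (from 0.0421), all up to 0.999.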
